A study of Mus musculus with 2 samples.

Results

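Among the T cells of a mouse melanoma single-cell data set, the levels of a peptide precursor gene and of 3 receptor genes were described. They were Penk, which encodes proenkephalin, and Calcrl, Ramp1 and Ramp3, which encode the parts of the receptors for calcitonin gene-related peptide (CGRP) and adrenomedullin. They are 4 of the 31053 mouse genes in the expression matrix and were picked by name, with their levels in these cells already known, so their levels are given as a description. In the GENCODE vM21 annotation of the mm10 genome, Penk (ENSMUSG00000045573) lies on the minus strand of chromosome 4 from 4133531 to 4138819, and Ramp1 (ENSMUSG00000034353) lies on the plus strand of chromosome 1 from 91179822 to 91225196. Ramp3 (ENSMUSG00000041046) lies on the plus strand of chromosome 11 from 6658521 to 6677475, and Calcrl (ENSMUSG00000059588) lies on the minus strand of chromosome 2 from 84330626 to 84425411.

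Proenkephalin is a secreted precursor that prohormone convertases cut at pairs of basic residues to release enkephalins, short opioid peptides that act on the delta and mu opioid receptors. Penk has long been known as a gene of activated T cells, regulatory T (Treg) cells included. CGRP is released by sensory nerve endings in skin and signals through Calcrl, a receptor that reaches the cell surface only with an accessory protein: Ramp1 makes it a CGRP receptor and Ramp3 an adrenomedullin receptor, and both raise cyclic AMP (cAMP). Calcrl, Ramp1 and Ramp3 are therefore partners of each other but not of the enkephalins, whose receptors belong to the opioid list described further on.

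The cells were T cells (TCR-β+, CD4+ or CD8+) sorted from skin tumors of C57BL/6J mice 9 days after intradermal injection of 100000 cells of B16 melanoma, or of B16–IL-33, the same line made to secrete interleukin-33. Cells of the tumors carried hashtag antibodies and were pooled into 1 gene expression, 1 hashtag and 1 T cell receptor library, so the series holds 1 pool. Each tumor had 2 hashtags, numbered 1 and 2, and the labels used here do not say what the numbers stand for. Lineages were not tested across mice, 2 tags against 2 cannot go below p = 0.333 in a two-sided exact permutation test, and every interval below is a 95% interval that covers counting error only. Counts are of unique molecular identifiers (UMIs, one per captured RNA molecule), and a level is the summed UMIs of a gene per 1000000 UMIs of a group of cells (CPM). Because the library reads transcript ends, CPM does not depend on gene length in the way full-length reads do, but capture differs between genes, and no level is ranked against that of another gene except as UMI counts.

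Of 14035 barcodes, 9078 had 200 to 2500 genes and under 5% mitochondrial UMIs and were kept, with a median of 2467 UMIs per cell (254 to 14063). By the lineage rules 2609 kept cells were Treg cells (a Foxp3 UMI, no Cd8), 1769 conventional CD4+ T (Tconv) cells (a Cd4 UMI, no Foxp3 or Cd8), 1260 CD8+ T cells and 81 cells with a UMI of Zbtb16, the transcription factor of natural killer T (NKT) cells, and 21 cells met both the Tconv and the NKT rule. The T cell markers summed to 3316 to 4194 CPM in these lineages, against 58.3 CPM in 224 kept cells with myeloid markers and no CD3 UMI, and the myeloid markers to 345 to 553 CPM against 13420 CPM. Those 224 cells were picked by UMIs of the same myeloid markers and for having no CD3 UMI. The CD3 genes are among the T cell markers, so the choice of cells largely set both gaps, which are no check of the lineages. Of the other NKT markers, Klrb1c was found in 9 of the 81 cells, so this group rests on Zbtb16 and is called Zbtb16+ cells here. The hashtag library shared 11756 barcodes with the expression library but held only 1730 UMIs of the 4 tags against 22837655 UMIs of no known tag.

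The enkephalins are the part of Penk that carries its function, so their stretches of the Penk-201 coding sequence, 268 residues long, are shown as read from GENCODE. Capitals mark the 5 codons of each enkephalin, which ends in methionine (Met-enkephalin) or leucine (Leu-enkephalin), and lower case marks the codons on either side. The convertases cut there where these codons are a basic pair.
Met-enkephalin, residues 100 to 104: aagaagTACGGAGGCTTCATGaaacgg
Met-enkephalin, residues 107 to 111: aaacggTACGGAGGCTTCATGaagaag
Met-enkephalin, residues 136 to 140: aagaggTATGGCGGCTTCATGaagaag
Met-enkephalin, residues 187 to 191: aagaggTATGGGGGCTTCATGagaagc
Met-enkephalin, residues 211 to 215: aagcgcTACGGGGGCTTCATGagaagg
Leu-enkephalin, residues 231 to 235: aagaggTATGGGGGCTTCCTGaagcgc
Met-enkephalin, residues 262 to 266: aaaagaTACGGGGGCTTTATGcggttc
The sequence holds 7 copies, 6 of Met-enkephalin and 1 of Leu-enkephalin, and 5 of them have a basic pair on both sides. The copies at residues 187 to 191 and 262 to 266 have a basic pair before them but none directly after.

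Penk, the peptide precursor, was highest in Treg cells. It reached 210.6 CPM there (200.8 to 220.7), with 1740 UMIs in 250 of 2609 cells. In Tconv cells it reached 96.0 CPM (87.6 to 105), with 482 UMIs in 79 cells, and in CD8+ T cells 22.8 CPM (18.8 to 27.3), with 115 UMIs in 44 cells. The 81 Zbtb16+ cells held 1 Penk UMI. Treg cells were thus 2.19 times (1.98 to 2.43) above Tconv cells and 9.25 times (7.66 to 11.3) above CD8+ T cells, and none of these 3 intervals of level overlapped. Penk ranked 651st of 14887 genes by UMIs in Treg cells. The ratio to CD8+ T cells was 4.37 without the upper limit on genes per cell and 15.3 under stricter lineage rules.

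The share of Treg cells with a Penk UMI was 9.58% (8.48 to 10.8) at a median of 2780 UMIs. In the myeloid-marker cells it was 0.446% (1 cell of 224, 0.0113 to 2.46) at a median of 2950 UMIs. Those cells were picked for having no CD3 UMI, and the part of free RNA in these shares was not tested. After every cell was thinned to 1500 UMIs the shares were 7.47% in Treg (6.40 to 8.66), 2.83% in Tconv (2.04 to 3.82) and 2.43% in CD8+ T cells (1.62 to 3.5). Tconv and CD8+ T cells therefore overlapped in the share of cells with Penk, while their levels did not. Of all Penk UMIs in kept cells, 56.5% were in Treg, 15.6% in Tconv and 3.73% in CD8+ T cells, and 23.9% were in cells with a CD3 UMI that met no lineage rule.

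**Figure D1:**
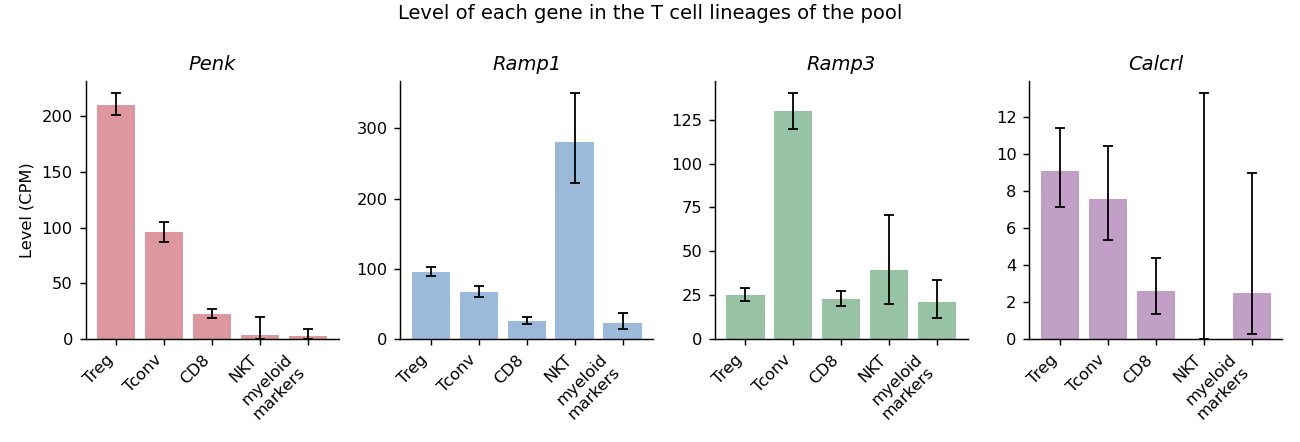
Level of the 4 genes (y axis, CPM, each panel with its own scale from 0) in Treg, Tconv, CD8+ T and Zbtb16+ (NKT rule) cells and in myeloid-marker cells. Bars are the summed level in 1 pool and whiskers the exact Poisson 95% interval of counting error. Penk is highest in Treg cells, Ramp3 in Tconv cells and Ramp1 in Zbtb16+ cells.

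Ramp1, the subunit of the CGRP receptor, was highest in Zbtb16+ cells. It reached 280.3 CPM there (222 to 350), with 78 UMIs in 43 of 81 cells, a share of 53.1%. In Treg cells it reached 95.6 CPM (89.1 to 103; 790 UMIs in 491 cells), in Tconv cells 67.3 CPM (60.3 to 74.9; 338 UMIs in 224 cells) and in CD8+ T cells 25.9 CPM (21.7 to 30.8; 131 UMIs in 108 cells). The 4 lineages were thus ordered with no overlap of intervals, and Zbtb16+ cells stood 4.16 times (3.21 to 5.34) above Tconv cells. The high level in Zbtb16+ cells was found in the 60 cells without a Cd4 UMI, at 300.3 CPM, and in the 21 with one, at 232.1 CPM. After thinning, 32.9% of Zbtb16+ cells (22.7 to 44.4) had Ramp1, against 10.9% of Treg (9.62 to 12.3), 7.74% of Tconv (6.42 to 9.24) and 4.17% of CD8+ T cells (3.09 to 5.49). The CD8+ level was close to that of the myeloid-marker cells, at 23.6 CPM (19 UMIs) and 4.43% after thinning (1.80 to 8.92), and was not read as expression.

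Ramp3, the subunit of the adrenomedullin receptor, had the opposite order to Penk in CD4+ cells. It reached 129.7 CPM in Tconv cells (119.9 to 140.0; 651 UMIs in 279 cells), 25.2 CPM in Treg cells (21.9 to 28.8; 208 UMIs in 123 cells) and 23.0 CPM in CD8+ T cells (116 UMIs in 63 cells). Tconv cells were 5.15 times (4.40 to 6.05) above Treg cells and 5.65 times (4.63 to 6.94) above CD8+ T cells. Treg and CD8+ T cells could not be told apart, with a ratio of 1.10 (0.870 to 1.39). Neither stood clear of the myeloid-marker cells at 21.1 CPM (17 UMIs), to which the Treg ratio was 1.19 (0.728 to 2.09). As with Ramp1 in CD8+ T cells, the Ramp3 level in Treg and CD8+ T cells was not read as expression. It was not read as absence either. The 17 UMIs of the myeloid-marker cells sat in 6 cells, with up to 7 in 1 cell, so that group was not free of Ramp3. Single Treg cells had up to 8 Ramp3 UMIs and single CD8+ T cells up to 9. Zbtb16+ cells had 39.5 CPM (19.7 to 70.7) from 11 UMIs in 5 cells. After thinning, 12.2% of Tconv cells (10.6 to 14.0) had Ramp3, against 2.78% of Treg cells (2.13 to 3.57).

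Calcrl, the receptor itself, was rare in every lineage. Treg cells had 75 UMIs in 71 cells (9.08 CPM), Tconv cells 38 UMIs in 36 cells (7.57 CPM) and CD8+ T cells 13 UMIs in 13 cells (2.57 CPM), and no UMI was found in the 81 Zbtb16+ cells. Treg and Tconv cells did not differ beyond counting error, with a ratio of 1.20 (0.801 to 1.82). In Treg cells it was 3.53 times (1.94 to 6.93) the CD8+ level, and the ratio to myeloid-marker cells, which held 2 UMIs, was 3.66 (0.979 to 30.8). At this depth most Calcrl cells carried a single molecule, so a cell without a Calcrl UMI could not be taken to lack the receptor.

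Set against all genes, members passed a 2-fold ratio of level in these comparisons as follows. Between Treg and Tconv cells Penk was over 2-fold higher, as were 3.5% of the 7886 genes with at least 100 UMIs in both groups together, and Ramp3 was over 2-fold lower, as were 1.55%. Between Treg and CD8+ T cells Penk and Ramp1 were over 2-fold higher, as were 8.29% of 7830 genes, and Ramp1 in Zbtb16+ against Tconv cells was among 1.92% of 5262 genes. Calcrl fell short of the 100 UMIs in the Treg and CD8+ comparison. As the genes were picked with these levels known, nothing is read from the counts.

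The Penk transcripts of Treg cells sat in few cells. Of the 250 Treg cells with Penk, 86 had 1 UMI, 74 had 2 to 4, 39 had 5 to 9, 27 had 10 to 19 and 24 had 20 or more, up to 71. Those 24 cells held 46.6% of the Penk UMIs, and 28 cells held 50%. For Ramp1, which was found in 491 Treg cells, 331 had 1 UMI and none had more than 9, and 128 cells were needed to hold 50%. With cells thinned to 1500 UMIs, the variance of Penk over Treg cells was 9.58 times its mean, the 15th highest of 3987 genes. The same ratio was 1.28 for Ramp1, 1.52 for Ramp3, 1.04 for Foxp3, which marks the whole lineage, and 29.9 for Ccl4, a chemokine gene of recently activated cells. Tconv cells were more uneven still: 7 cells held 54.1% of their Penk UMIs, the highest with 82.

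**Figure D2:**
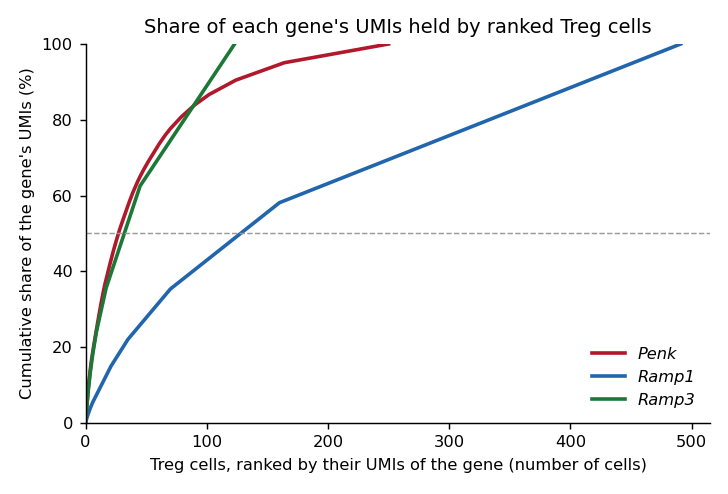
Cumulative share of each gene's UMIs (y axis, percent) over Treg cells ranked by their UMIs of that gene (x axis, number of cells). The Penk line reaches 50% (dashed) at 28 cells, the Ramp3 line at 32 and the Ramp1 line at 128, while Penk was found in 250 cells, Ramp3 in 123 and Ramp1 in 491.

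Treg cells with Penk had more Pcsk1, 1 gene of the enzymes that process its product. Pcsk1, the prohormone convertase of secretory granules and a gene of the opioid list, had 66.3 CPM in the 161 thinned Treg cells with Penk and 16.7 CPM in the 1994 without, a ratio of 3.96 (2.11 to 7.08). Before thinning, Pcsk1 was found in 26 of 250 Treg cells with Penk (10.4%, 6.91 to 14.9) and in 66 of 2359 without (2.80%, 2.17 to 3.55). After thinning the shares were 7.45% (3.91 to 12.7) and 1.86% (1.31 to 2.55), so the gap held at equal depth. Pcsk1 had too few UMIs to enter the ranking over genes. Cpe, the gene of the enzyme that trims the cut peptides, showed no clear difference. Before thinning it was at 5.27 CPM (3.75 to 7.20) in Treg cells with no Penk UMI. With 1, 2 to 9 and at least 10 Penk UMIs it was at 0, 5.40 and 13.5 CPM (2.79 to 39.6), from 0, 2 and 3 UMIs. In Tconv cells 2 of 79 with Penk and 14 of 1690 without had Pcsk1, and in CD8+ T cells 3 of 44 and 2 of 1216. Pcsk1 was itself higher in Treg cells with a UMI of Il1rl1, the interleukin-33 receptor, at 41.5 CPM (32.2 to 52.6), than in those without, at 11.9 CPM (9.44 to 14.9), a split that Penk did not follow.

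Over all genes, few differed with Penk. Of 3986 genes with at least 100 UMIs in thinned Treg cells, 32 (0.803%) were at least 2-fold higher in cells with Penk and 105 (2.63%) at least 2-fold lower, and the median ratio was 1.01. The 10 highest were Ormdl3 at 2.57 (1.85 to 3.52), Srebf1 at 2.53, Dpy30 at 2.52, Vezf1 at 2.48, Hivep1 at 2.45, Cdc37l1 at 2.40, Ccl4 at 2.29 (1.99 to 2.62), Naa15 at 2.28, Csf1 at 2.26 (1.41 to 3.48) and Tmed3 at 2.24. Ormdl3 restrains sphingolipid synthesis, Srebf1 drives lipid synthesis, and Csf1 is the growth factor of macrophages. The Ccl4 ratio did not hold at every Penk count before thinning. Ccl4 was at 458 CPM with no Penk UMI and at 928, 308 and 1847 CPM with 1, 2 to 9 and at least 10. Its interval covers counting error and not its uneven spread over cells. The 5 lowest were Ccl2, Dkkl1, Trbv13-1 and Spp1, each with no UMI in cells with Penk, and the myeloid gene Lyz2 at 0.0566. The myeloid list, with 2 of 6 genes above a ratio of 1, summed to 0.297 times (0.178 to 0.468) the level in other Treg cells after thinning but to 0.985 times (0.870 to 1.11) without thinning. Lyz2 without thinning was at 99.9 CPM with no Penk UMI and at 163, 8.10 and 140 CPM with 1, 2 to 9 and at least 10, so a low myeloid level in cells with Penk was not stable, and its part in the other differences was not tested.

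The hyperactivated, Il1rl1, effector and inhibitory receptor lists were higher in Treg cells with Penk and the central list lower. The immediate early list was not higher. The inhibitory receptor list (Pdcd1, Havcr2, Lag3 and Tigit) holds only genes of the hyperactivated and effector lists, so it is not a separate result. All 3 of the hyperactivated list were above a ratio of 1, with Lag3 at 2.03 (1.72 to 2.39) and Havcr2 at 2.03, both inhibitory receptors, and Tnfrsf9 at 1.44. The summed ratio of that list was 1.59, that of the effector list 1.35 with 4 of 5 above 1, and that of the inhibitory receptor list 1.54 with 3 of 4 above 1. The decoy receptor Il1r2 stood at 1.93 (1.33 to 2.74) and the growth factor Areg at 1.53 (1.36 to 1.72), while Il1rl1 stood at 0.993 (0.661 to 1.44). Of the central list 1 of 5 genes was above 1 (0.720, 0.619 to 0.833), with Tcf7, a factor of resting T cells, at 0.445 and Klf2, a factor of recirculating cells, at 0.689 (0.573 to 0.821). The interferon list had 0 of 5 above 1 (0.842, 0.693 to 1.01), and Foxp3 was at 1.10. The Il1rl1 list had 4 of 5 above 1 (1.46), the immediate early list 3 of 6 (0.971) and the cAMP list 6 of 9 (1.09). Without thinning the hyperactivated list was at 1.48, the Il1rl1 list at 1.41 and the effector list at 1.23. The inhibitory receptor list was at 1.33 and the central list at 0.841.

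The summed level of some of these genes was graded with the number of Penk molecules per cell, though not every class stood clear of the next. Treg cells were placed in 4 classes after the values were seen: no Penk UMI (2359 cells), 1 (86), 2 to 9 (113) and 10 or more (51), with Penk left out of the totals. Pcsk1 went from 13.9 (11.4 to 16.9) to 30.3 (13.1 to 59.7), 51.3 (30.9 to 80.1) and 76.8 CPM (44.7 to 123) across the classes. The intervals of each class and the next overlapped. Lag3 went from 334 (321 to 348) to 507 (425 to 601), 556 (483 to 638) and 758 (648 to 882). Il1r2 went from 87.2 (80.6 to 94.2) to 94.7 (61.3 to 140), 149 (112 to 193) and 266 (203 to 344). For Lag3 and Il1r2 the last class stood clear of the others. The lymph node egress genes were lowest in the last class but were not graded. S1pr1 was at 45.4, 56.8 (31.8 to 93.7), 16.2 (5.95 to 35.3) and 13.5 CPM (2.79 to 39.6), and Klf2 at 698, 632, 637 and 239. Areg did not grade, with 792 CPM without Penk and 1230, 1097 and 1079 CPM in the other classes, and neither did Il1rl1, at 117, 68.1, 213 and 85.8. Median UMIs per cell were 2756, 2753.5, 2972 and 3964, so the class with the most Penk was also the deepest, and CPM corrects for this only in the sum.

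**Figure D3:**
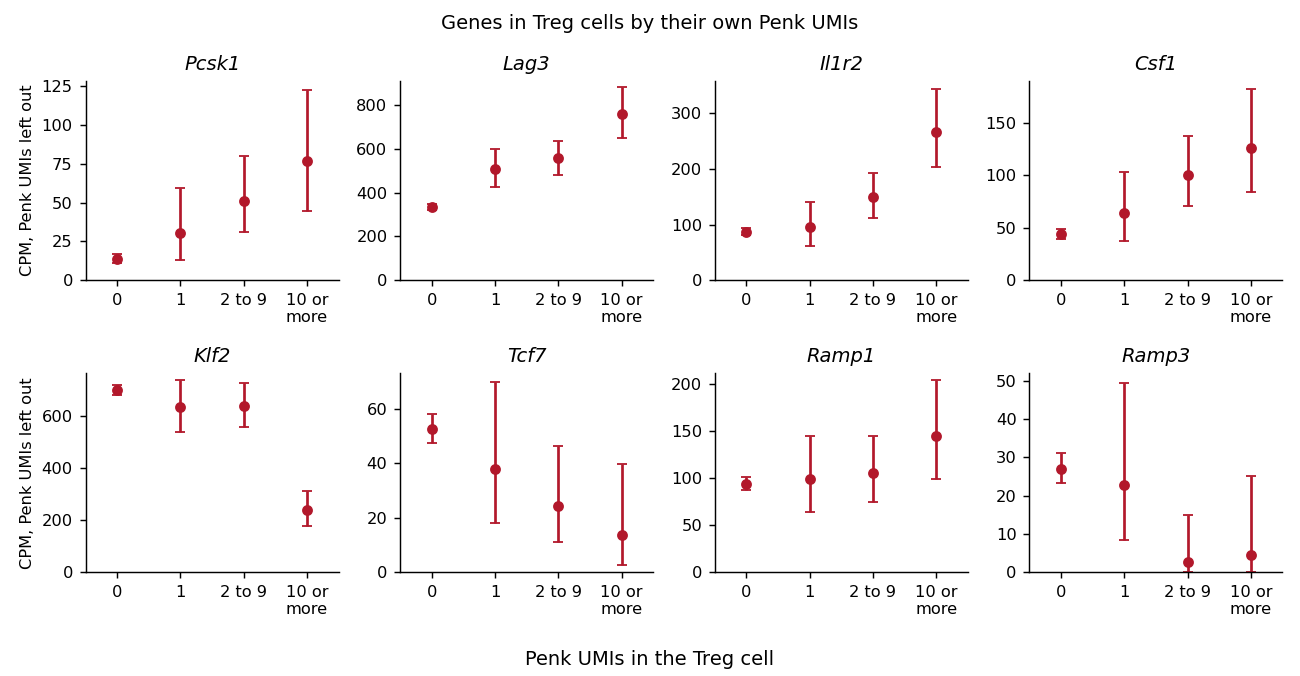
Level of selected genes (y axis, CPM with Penk left out, each panel with its own scale from 0) in Treg cells with 0, 1, 2 to 9 and at least 10 Penk UMIs (x axis). Points are summed levels and bars exact Poisson 95% intervals. The points of Pcsk1 and Lag3 climb from class to class, with overlap between the bars of some neighboring classes. Klf2 is lowest in the 51 cells of the last class.

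The 79 Tconv cells with Penk, which had no Foxp3 UMI by rule, had more of the other Treg markers. After thinning, 41 Tconv cells had a Penk UMI and 1406 had none. The list without Foxp3 summed in those 41 to 1.80 times (1.42 to 2.26) the level in the 1406, with 3 of 3 above 1. Before thinning Ikzf2, a factor of Treg cells, had 524 CPM (437 to 624) against 268 CPM (253 to 283), and Il2ra, the high-affinity interleukin-2 receptor chain, 225 CPM against 107 CPM. Areg had 108 CPM against 235 CPM. The lineage rule cannot tell a Foxp3-negative cell from a Treg cell whose Foxp3 RNA was not captured. With at least 2 Foxp3 UMIs required of Treg cells, the ratio of Penk between Treg and Tconv cells was 2.58.

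The Il1rl1 split of Treg cells, into 504 cells with a UMI and 2105 without, addressed the cells that carry the interleukin-33 receptor transcript. Penk was at 222.2 and 207.7 CPM and did not differ beyond counting error, with a ratio of 1.07 (0.951 to 1.20), which was 0.859 when cells with markers of other lineages were left out. Ramp1 was lower in Il1rl1+ cells, at 64.1 against 103.4 CPM, a ratio of 0.620 (0.5 to 0.762). Ramp3 stood at 31.1 and 23.7 CPM with a ratio of 1.31 (0.938 to 1.81), and Calcrl at 10.4 and 8.76 CPM with a ratio of 1.19 (0.647 to 2.06). No member passed 2-fold in either direction, where 0.494% of 6674 genes were at least 2-fold higher and 1.12% at least 2-fold lower.

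The tumor of a cell was known for few cells. The 4 hashtags that name the tumor are shown because all comparisons between tumors rest on them.
B16_1: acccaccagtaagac
B16_2: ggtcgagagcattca
B16IL33_1: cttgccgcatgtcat
B16IL33_2: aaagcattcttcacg
They had 554, 929, 102 and 145 UMIs in that order. By these tags 300 Treg cells were given a tumor, 268 of them on a single tag UMI. Penk had 299 UMIs in 36 of 245 Treg cells from B16 tumors (317.8 CPM) and 88 UMIs in 11 of 55 from B16–IL-33 tumors (485.9 CPM), a ratio of 1.53 (1.19 to 1.95). One cell held 32 of those 88 UMIs. The single tags ranged more widely than the tumors did, with 174.1 CPM for B16_1 (80 cells), 366.2 for B16_2 (160 cells), 239.0 for B16IL33_1 (18 cells) and 580.6 for B16IL33_2 (37 cells). By tag number, the ratio of B16–IL-33 to B16 was 1.37 (0.667 to 2.61) for the tags numbered 1 and 1.59 (1.21 to 2.07) for those numbered 2. Within B16 the tags differed by 2.10 times (1.55 to 2.90), and without cells that had at least 2 productive T cell receptor beta chains, a sign of a doublet, the tumor ratio was 0.898 (0.662 to 1.20). Penk was therefore not shown to differ between the tumors.

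The receptor genes gave little more by tumor. Ramp1 had 153.1 CPM in B16 and 77.3 CPM in B16–IL-33 Treg cells, a ratio of 0.505 (0.269 to 0.875) from 14 UMIs in the latter, and Ramp3 and Calcrl had 1 and 3 UMIs there. The ratio of Ramp1 between the B16 tags was 1.46 (0.987 to 2.20). B16 cells were deeper, with a median of 3401 UMIs against 2467.

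By state, the summed levels of the genes had different orders. Treg and Tconv cells were placed, in this order of rule, into cycling cells (at least 2 UMIs of the cycling list), interferon cells (at least 3 of the interferon list), central cells (a UMI of a resting T cell gene such as Tcf7 or Ccr7), Il1rl1 cells, cells with an inhibitory receptor (Pdcd1, Havcr2 or Lag3), and the rest. Penk in Treg cells was highest by summed CPM in cycling, central and inhibitory cells, whose intervals overlapped. They had 291 (250 to 337), 264 (245 to 285) and 261 CPM (237 to 286). Il1rl1 cells followed (200, 169 to 236), and interferon cells (115, 99.1 to 133) and the rest (93.8, 76.0 to 115) were lower. The cycling value came from 177 UMIs in 16 cells. By the thinned share of cells with Penk the states could not be told apart, as all intervals overlapped. The shares were 10.7% in cycling, 7.83% in central, 8.78% in inhibitory, 8.78% in Il1rl1 and 4.94% in interferon cells, and 5.83% in the rest. The central group had more Penk than all Treg cells together (210.6 CPM), although the central list was lower in cells with Penk; a cell entered that group on 1 UMI of those genes. By summed CPM Ramp1 was highest in inhibitory cells, at 151 CPM (133 to 171) in Treg and 143 CPM (115 to 177) in Tconv cells, with intervals that overlapped those of cycling cells. By the thinned share of cells cycling cells stood above inhibitory cells, at 17% against 15.4% in Treg and 15.8% against 12% in Tconv cells. In Treg cells Ramp1 was at 57.4 CPM in Il1rl1 and 66.9 CPM in interferon Treg cells. Ramp3 in Tconv cells was at 109 to 173 CPM in all states except cycling cells, at 32.2 CPM (11.8 to 70.0), and in Treg cells the cycling state was also lowest, with 2 UMIs. Penk in Tconv cells reached 484 CPM in 53 Il1rl1 cells, from 70 UMIs in 5 cells, and 279 CPM in 41 cycling cells, from 52 UMIs in 3 cells.

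**Figure D4:**
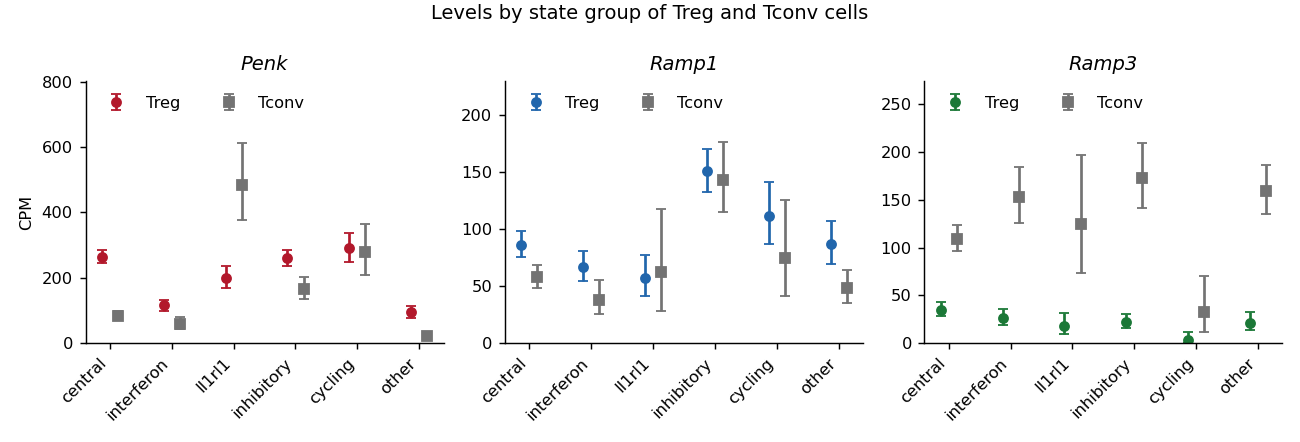
Level of Penk, Ramp1 and Ramp3 (y axis, CPM, each panel with its own scale from 0) in 6 state groups of Treg (circles) and Tconv cells (squares), with exact Poisson 95% intervals of counting error. Ramp1 by summed CPM is highest in the inhibitory group of both lineages, where its interval overlaps that of cycling cells. The Ramp3 point of Tconv cells is above that of Treg cells in every group. In cycling cells, with 6 and 2 Ramp3 UMIs, the intervals of the 2 lineages overlap.

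Treg cells with Ramp1 had higher levels of effector genes and lower levels of the central and interferon lists. Of the same 3986 genes, 6 (0.151%) were at least 2-fold higher in the 235 thinned Treg cells with Ramp1 than in the 1920 without, and 67 (1.68%) at least 2-fold lower. The 5 highest were Il17a at 2.98 (1.84 to 4.69), which encodes an inflammatory cytokine, Slc16a6 at 2.53, Dyrk1a at 2.19, Tm2d2 at 2.14 and Med7 at 2.12. All 5 effector genes were above 1 (list 1.35, 1.24 to 1.48), among them Nkg7 at 1.67 (1.44 to 1.93) and Il1r2 at 1.69 (1.21 to 2.32). The central list had 0 of 5 above 1 (0.601), the interferon list 0 of 5 (0.535) and the immediate early list 0 of 6 (0.767). Il1rl1 was at 0.562 (0.362 to 0.837) and Areg at 0.690 (0.602 to 0.788), while 3 of 5 genes of the Il1rl1 list were above 1 and the list summed to 0.816 (0.741 to 0.898). The myeloid list was at 0.358 after thinning, with 1 of 6 above 1, and at 0.828 without thinning, and its part was not tested.

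Cells with Ramp3 had more Crem, a cAMP-induced transcription factor gene of the cAMP list. By lineage Crem did not follow Ramp3, with 180 CPM in Treg, 139 CPM in Tconv and 60.2 CPM in CD8+ T cells. In Tconv cells Crem had 444 CPM in the 177 thinned cells with Ramp3 and 113 CPM in the 1270 without, a ratio of 3.92 (3.1 to 4.93). The share of cells with a Crem UMI was 45.2% (37.7 to 52.8) against 14.2% (12.3 to 16.2). The same direction was found in Treg cells, at 35.0% (23.1 to 48.4) against 21.3% (19.6 to 23.2), and in CD8+ T cells, at 33.3% (18.0 to 51.8) against 8.68% (7.09 to 10.5). The Crem ratio was 2.02 (1.36 to 2.90) in Treg and 4.23 (2.18 to 7.56) in CD8+ T cells. Ramp3 in Treg and CD8+ T cells was not clear of its level in myeloid-marker cells, so these values only describe cells with a Ramp3 UMI.

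Crem was not higher with Ramp1 or Penk. With and without Ramp1, the share of cells with Crem was 20.4% and 21.9% in Treg, 7.14% and 18.9% in Tconv and 6.25% and 9.52% in CD8+ T cells. With and without Penk it was 16.1% and 22.2% in Treg and 2.44% and 18.4% in Tconv cells. Of the 9 genes of the cAMP list with enough UMIs, 6 were above 1 in Tconv cells with Ramp3 (list 1.30, 1.18 to 1.42), with Crem giving 118 of the 541 UMIs of the list. In Treg cells with Ramp3 3 of 9 were above 1 (0.989, 0.836 to 1.16) and in CD8+ T cells 4 of 8 (1.11, 0.874 to 1.38), and both of these intervals held 1. Gnas, which encodes the stimulatory G protein, stood in Tconv cells at 1.24 (1.06 to 1.44). Pde4b and Pde3b, which encode enzymes that break down cAMP, were at 0.783 (0.588 to 1.03) and 0.747 (0.347 to 1.43).

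**Figure D5:**
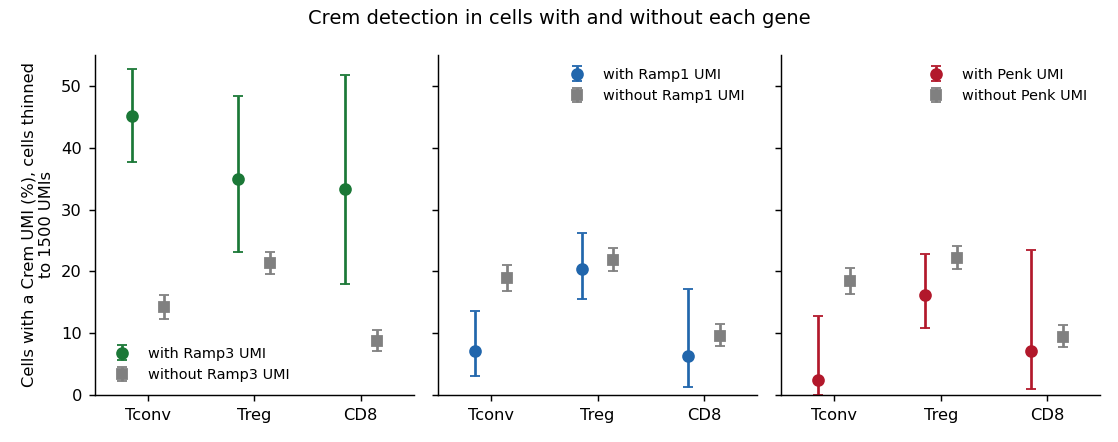
Share of cells with a Crem UMI (y axis, percent of cells thinned to 1500 UMIs) in Tconv, Treg and CD8+ T cells with and without a UMI of Ramp3, Ramp1 or Penk (panels), with exact binomial 95% intervals of counting error. The share is higher with Ramp3 in all 3 lineages, at 45.2% against 14.2% in Tconv cells, and is not higher with Ramp1 or Penk. The Ramp3 level in Treg and CD8+ T cells was not read as expression.

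Other genes of Ramp3 cells were named after their values were seen. Of 2681 genes in thinned Tconv cells, 32 (1.19%) were at least 2-fold higher with Ramp3 and 81 (3.02%) at least 2-fold lower. The highest were Serpinb6b at 4.89 (3.71 to 6.42), a protease inhibitor gene, Neurl3 at 4.18 and Fosl2 at 4.08 (3.03 to 5.45), an AP-1 factor gene, together with Crem. Penk was among the lowest, at 0.0903 (0.0108 to 0.331). Lag3 was at 0.193 (0.0701 to 0.427), whereas Pdcd1, another inhibitory receptor gene, was at 2.63 (1.85 to 3.69). The interferon list had 4 of 5 above 1 (1.41), the Il1rl1 list 0 of 5 (0.376) and the hyperactivated list 0 of 3 (0.628). In Tconv cells with 0, 1 and at least 2 Ramp3 UMIs (1490, 141 and 138 cells), Crem was at 102, 198 and 454 CPM, Serpinb6b at 68.8, 172 and 412, Pdcd1 at 75.9, 100 and 218, and Penk at 112, 18.6 and 12.4. The myeloid list was at 0.438 in Tconv cells with Ramp3, with 0 of 5 above 1, and at 0.499 without thinning, and its part was not tested.

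In the 60 thinned Treg cells with Ramp3 the highest genes included Cd40lg at 4.94 (2.73 to 8.38), the helper ligand of activated CD4+ cells, Gramd3 at 3.81, Stat4 at 3.69 and Arid5a at 3.28. Cd40lg was at 32.0, 78.3 and 133 CPM in Treg cells with 0, 1 and at least 2 Ramp3 UMIs, and Penk was at 221, 71.8 and 4.92 CPM. Those classes had medians of 2743, 3878 and 4071 UMIs. As the Ramp3 level in Treg and CD8+ T cells was not read as expression, the values here only describe cells with a Ramp3 UMI. The Treg marker list was lower in Treg cells with Ramp3, at 0.686 (0.595 to 0.788) with 0 of 4 above 1, and the myeloid list was at 0.0432 after thinning and 1.51 (1.33 to 1.72) without, and their part was not tested. In 33 CD8+ T cells with Ramp3 the highest were Psmd9, Gpr65, Dhx40, Rpia and Sesn3, at ratios from 4.32 to 4.84. In 48 CD8+ T cells with Ramp1 they were Cd74 at 12.5, Lyz2 at 11.3, Tyrobp at 5.87, Igfbp4 at 4.89 and Gngt2 at 3.90. Cd74, Lyz2 and Tyrobp are genes of antigen-presenting and myeloid cells, and the myeloid list was at 5.2 (4.18 to 6.41) in those cells, with 5 of 5 genes above 1, and at 3.16 without thinning.

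Penk and Ramp3 were seldom found in the same Treg cell, though Ramp3 in Treg cells was not clear of its level in myeloid-marker cells. Of 250 Treg cells with Penk, 4 had Ramp3 (1.60%) against 5.04% of the 2359 without, and after thinning 0 of 161 had it, which allows a share of up to 2.27% by the exact interval, against 3.01% (2.30 to 3.86) of 1994. In Tconv cells the thinned shares overlapped, at 4.88% (0.596 to 16.5) with Penk and 12.4% (10.8 to 14.3) without, and in CD8+ T cells the order was the other way with wide intervals, at 7.14% (0.877 to 23.5) against 2.76% (1.88 to 3.90). Ramp1 was found in 61 of the 250 (24.4%, 19.2 to 30.2) and in 18.2% of the others, and after thinning in 15.5% (10.3 to 22.1) and 10.5% (9.22 to 12), so its intervals overlapped. Ramp1 and Ramp3 were also seldom together in Tconv cells, where after thinning 2.68% of cells with Ramp1 (0.556 to 7.63) had Ramp3, against 13% (11.3 to 15) of those without.

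Cells with a full receptor pair were rare. Calcrl with Ramp1 was found in 20 Treg cells (0.767%), 4 Tconv and 2 CD8+ T cells, and Calcrl with Ramp3 in 3 Treg, 4 Tconv and 0 CD8+ T cells, while 48 Treg cells had Calcrl with neither. Of the 491 Treg cells with Ramp1, 4.07% had Calcrl, against 2.41% of the others. No Treg cell had all 4 members, 4 cells had 3, 107 had 2 (4.10%) and 68.6% had none.

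Clones were read from the T cell receptor library, where 5448 kept cells had a clonotype and 251 clones held at least 2 kept cells. Penk cells were in 31 of those clones, which held 77 cells and 34 Penk cells, and 28 of the 31 had only 1 Penk cell. The clone with the most Penk in both its cells, at 15 and 9 UMIs, had these receptor junctions, shown because it is the one clone in which more than a few molecules were shared.
TRAV6-5 with TRAJ40, 39 bases: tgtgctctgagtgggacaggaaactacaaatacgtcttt
TRBV1 with TRBJ1-1, 42 bases: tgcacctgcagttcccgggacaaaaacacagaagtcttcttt
Another cell with 70 Penk UMIs had a clone partner at 0. For the shares in expanded clones, a clone needed at least 2 cells of the same lineage, which left 46 clones in Treg cells. Of 165 Treg cells with Penk and a clonotype, 10 were in expanded clones (6.06%, 2.94 to 10.9), against 88 of 1540 without (5.71%).

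Clone membership was counted for Ramp3 and Ramp1 cells in the same way. Of Tconv cells with Ramp3, 19 of 177 were in expanded clones (10.7%, 6.59 to 16.3), against 44 of 1003 without (4.39%, 3.21 to 5.84). Of Treg cells with Ramp1, 34 of 391 were (8.70%, 6.1 to 11.9), against 64 of 1314 (4.87%, 3.77 to 6.18). Of Treg cells with Ramp3, 2 of 92 were (2.17%, 0.264 to 7.63), against 5.95% without, and of CD8+ T cells with Ramp3, 8 of 45 (17.8%, 8.0 to 32.1), against 21.9%, so the order seen in Tconv cells was not found there. Of CD8+ T cells with Ramp1, whose level was not read as expression and which had more of the myeloid list, 6 of 83 were (7.23%, 2.70 to 15.1), against 194 of 838 (23.2%, 20.3 to 26.2). Ramp3 in Treg and CD8+ T cells was not read as expression either. Cells of 1 clone are not independent, so these intervals are too narrow.

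The partners of Penk were nearly absent. Of 12 opioid genes, 7 had no UMI in any T cell lineage, including Oprd1, which encodes the delta receptor, Pcsk2, and Mme, which encodes the peptidase that degrades enkephalins. Oprm1, which encodes the mu receptor, had 4 UMIs in Treg cells. Besides Pcsk1 the genes with at least 20 UMIs were Pomc, the endorphin precursor, at 2.90 CPM in Treg and 4.38 CPM in Tconv cells, and Cpe, which trims the cut peptides, at 5.33 CPM in Treg and 1.79 CPM in Tconv cells.

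The ligands of the receptors were rare as well. Of 8 genes of the CGRP and adrenomedullin list, Calcb, Adm2, Iapp and Calcr had no UMI in the lineages, and Ramp2 had 1 in Treg cells. Calca, the CGRP precursor gene, had 32 UMIs in 14 Tconv cells (6.37 CPM) and 26 UMIs in 15 Treg cells (3.15 CPM), and Crcp, a gene for a cofactor of CGRP signalling, was at 20.2 to 24.7 CPM in Treg, Tconv and CD8+ T cells. Adm, the adrenomedullin gene, was at 64.5 CPM in the myeloid-marker cells, from 52 UMIs in 7 cells. Of 15 other neuropeptide receptor genes, only Vipr1, for vasoactive intestinal peptide, reached 20 UMIs in a lineage, at 11 CPM in Tconv and 2.66 CPM in Treg cells.

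Over the 16 groups of lineage and state with at least 50 cells, the genes most like Penk in log2(CPM + 10) were Lpcat1 (Pearson correlation 0.931), Myo1c (0.928), Pdia3 (0.926), Ccr8 (0.917) and Mast4 (0.911) of 6807 genes. Those most like Ramp1 were Sdf4 (0.941), Timp2 (0.939), Il10 (0.938), Zfp362 (0.928) and Cd81 (0.924), and those most like Ramp3 were Tnfsf8 (0.937), St6galnac3 (0.913), Tnfsf11 (0.908), Cd40lg (0.907) and Irf2bp2 (0.881). Penk and Ramp1 correlated at 0.818, whereas Ramp3 correlated at 0.148 with Penk and 0.223 with Ramp1. No state group of the Zbtb16+ cells, where Ramp1 was highest, reached 50 cells (the largest had 37), so those cells played no part in these correlations. The groups share 1 library and differ in depth, and the correlations are a description only.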

How the data were processed

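Per the submitters' processing notes the authors ran Cell Ranger 6.1.1 on mm10 (the matrix header names 3.1.0) and deposited raw UMI counts per gene and barcode, for a combined human and mouse reference, with a second matrix of hashtag counts and a table of T cell receptor contigs. Human genes (8562 UMIs) were left out. Barcodes with 200 to 2500 mouse genes and under 5% mitochondrial UMIs were kept. The 4 members, the gene lists and the lineage rules were chosen with earlier results of these data known. A tumor was assigned from at least 1 tag UMI, all of 1 tumor. No doublet caller was run; leaving out the 428 kept cells with at least 2 productive beta chains was an alternative.

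Counts were summed per group as CPM with exact Poisson intervals. Ratios had exact conditional binomial intervals and shares had Clopper-Pearson intervals, all at 95%. Cells were thinned once to 1500 UMIs (seed 1), leaving out shallower cells. List ratios without thinning were added after the data were seen. The text names the members, list genes with at least 20 UMIs in a lineage, the 10 highest and 5 lowest ratios for Penk and the 5 highest for Ramp1 and Ramp3 in Treg and CD8+ T cells, and the 5 genes most like each of Penk, Ramp1 and Ramp3. Other names were added after values were seen. 1 gene that this rule names for Ramp3 in Treg cells is not reported here. The ranking needed at least 100 UMIs in CD4+ lineages and 50 in CD8+ T cells. On simulated Poisson counts of 3908 genes in Treg cells with and without Penk, the ratio interval held the true fold in 94% to 96% of genes. The interval assumes the same Poisson model. This check therefore could not show whether the interval holds for genes whose counts vary more between cells. Python 3.11.15, NumPy 2.4.6, SciPy 1.17.1, pandas 2.3.3 and matplotlib 3.10.9 were used. Alternatives changed the cell filter, lineage rules, scaling, depth, tag rule and clone rule.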

Additional observations from a re-analysis of the deposited data

Results flagged for a closer look

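All 4 genes had UMIs in the 4957 barcodes that the cell filter left out, above the 0.178 CPM that 3 counts would give there. Penk was at 138 CPM (2318 UMIs in 268 barcodes), Ramp1 at 41.1 CPM, Ramp3 at 17.2 CPM and Calcrl at 5.41 CPM, at a median of 593 UMIs. Mlana, a melanoma gene, was at 355 CPM in these barcodes and 3.91 CPM in kept cells. Among them were 224 barcodes with over 2500 genes that met the Treg rule, with a median of 11588.5 UMIs, and Penk was at 291.3 CPM, Ramp1 at 85.2 CPM, Ramp3 at 12.1 CPM, Calcrl at 5.17 CPM and Mlana at 67.2 CPM in these. The part of doublets in these values was not tested.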

How the results depend on the processing

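Of 119 values of 16 results under alternatives, 86 lay within the counting interval of the reported value, 31 outside it and 2 outside it with the direction turned. In all, 9 ratios lay on the other side of 1, of which 2 belong to a ratio whose interval excluded 1 and 7 to ratios whose interval held it (Penk in Il1rl1+ to Il1rl1-, Ramp3 in Treg to CD8+ cells). The ratio of Penk between B16–IL-33 and B16 Treg cells (1.53) turned to 0.898 without cells with at least 2 productive beta chains and to 0.692 (0.0808 to 2.69, which holds 1.53) with at least 2 tag UMIs, and was 2.99 with no upper limit on genes and 2.06 with only CD3 cells free of other lineages' markers. Under that CD3 rule Penk was at 2.57 for Treg to Tconv, 11.6 for Treg to CD8+ and 0.859 for Il1rl1+ to Il1rl1- cells, Ramp3 at 0.165 for Treg to Tconv, and 0% of Treg cells with Penk had Ramp3. With no upper limit on genes, Penk was at 2.70 for Treg to Tconv and 4.37 for Treg to CD8+, and Ramp3 at 1.54 for Treg to CD8+ cells. With at least 2 Foxp3 UMIs the values were 2.58 for Penk in Treg to Tconv, 0.946 for Penk in Il1rl1+ to Il1rl1- and 0.163 for Ramp3 in Treg to Tconv cells. The mean of each cell's CPM gave 1.88 for Penk and 0.165 for Ramp3 in Treg to Tconv, 0.494 for Ramp1 in CD8+ to Tconv, 0.828 for Ramp3 in Treg to CD8+, and 9.17 CPM for Calcrl, which was 9.67 CPM without ribosomal and mitochondrial genes. A mitochondrial limit of 10% gave 1.89 for Penk in Treg to Tconv, leaving out cells with at least 2 beta chains gave 0.157 for Ramp3 in Treg to Tconv, and stricter lineage rules gave 15.3 for Penk and 2.29 for Ramp3 in Treg to CD8+ cells. Thinning to 1500 and 1000 UMIs gave 7.47% and 7.06% of Treg cells with Penk, and of these 15.5% and 8.19% with Ramp1 and 0% and 0% with Ramp3. The share of Treg cells with Penk in expanded clones (6.06%) was 12% by beta chain alone and 1.82% with clones of at least 3 cells. The cause was not tested in any of these. Ramp1 in Treg to Tconv, Zbtb16+ to Tconv and Il1rl1+ to Il1rl1- cells, and Ramp3 in Il1rl1+ to Il1rl1- cells, kept within their intervals under every alternative run. No paired analysis was possible because these ratios come from no test and the labels do not say that a tag number pairs samples. The ratio was 1.37 by the tags numbered 1 and 1.59 by those numbered 2. Depth limits the receptor genes: in Treg cells most cells with Ramp1 (331 of 491) or Ramp3 (78 of 123) had 1 UMI, as did most with Calcrl.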
